A study of Mus musculus with 24 samples.

Results

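Interferon-stimulated genes were examined in mouse liver after 7 weeks of treatment with siRNAs against Keap1. The set is a list of 34 genes of the type I and type II interferon response, and each gene was read from its brightest probe set that names a single gene. Of the 34, 32 could be measured among 18193 genes on the array. Ifi44 was not analysed here, and neither was Isg15, whose probe set also names another gene. Liver RNA of 24 male C57BL6/J mice was hybridised to 24 whole genome arrays, 8 in each of 3 groups. All mice were 8 weeks old at the start, were fed a high-fat diet with sucrose in the drinking water, and received 1 mg per kg of a chemically modified siRNA in lipid nanoparticles every week through the tail vein. The groups received siKeap1-1 or siKeap1-2, which target the same mRNA, or siControl, a scrambled siRNA. All 3 groups thus received siRNA and nanoparticles, and a response common to all 3 siRNAs cannot be seen in these comparisons. Livers of 4 fed and 4 fasted animals entered each group according to the methods. Which array came from which is not in the labels, so feeding remains part of the spread within groups.

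Cells that sense foreign nucleic acids secrete type I interferons. Type I interferon binds the receptor Ifnar1/Ifnar2, whose kinases activate a complex that holds Stat2 and Irf9 and binds the interferon-stimulated response element (ISRE) in promoters. The induced proteins sense RNA and DNA, block translation, trap virus particles and present antigen. Duplex RNA such as an siRNA can itself be a ligand of these sensors. The study also measured release of interferon alpha from transfected human blood cells for the Keap1 siRNAs, without a value for siControl. It reports less release with the modified forms than with the unmodified ones. The array data show whether this gene program differed between livers after chronic dosing.

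The promoters of 25 of the 34 genes were in the RefSeq table used (250 bases before to 50 bases after the start site, GRCm38.p6). The ISRE core GAAANNGAAA was found on either strand in 15 of these 25, in 24 of 87 other genes of the interferon pathway (27.6%) and in 3.99% of 27025 genes. Shown are 6 windows of 60 bases from genes of different roles, chosen to show the element in strongly inducible effectors and in Stat2, which was called lower with both Keap1 siRNAs. They run 5′ to 3′ on the strand of the gene, with matches to the core in capitals. On the opposite strand the core reads TTTCNNTTTC.
Ifit1: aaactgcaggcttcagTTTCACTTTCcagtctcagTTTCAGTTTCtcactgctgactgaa
Ifit3: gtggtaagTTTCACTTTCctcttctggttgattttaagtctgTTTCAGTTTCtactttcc
Rsad2: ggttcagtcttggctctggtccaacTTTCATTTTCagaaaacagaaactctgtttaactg
Oas3: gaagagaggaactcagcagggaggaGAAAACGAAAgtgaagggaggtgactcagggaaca
Gbp3: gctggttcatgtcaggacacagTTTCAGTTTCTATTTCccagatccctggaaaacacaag
Stat2: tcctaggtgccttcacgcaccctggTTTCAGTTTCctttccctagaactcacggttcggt
The windows of Ifit1 (chr19:34640769-34640828) and Ifit3 (chr19:34583365-34583424), both on the plus strand, each hold 2 matches. Rsad2 (chr12:26456538-26456597, minus strand), Oas3 (chr5:120777700-120777759, minus strand) and Stat2 (chr10:128270251-128270310, plus strand) hold 1 match each, and in Gbp3 (chr3:142559977-142560036, plus strand) 2 matches overlap. The window of Stat2 lies farthest from the start site, at positions −247 to −188 relative to it. The core of the antioxidant response element bound by Nrf2, TGACNNNGC, was in 5 of the 25 promoters, compared with 14.0% of all genes. These letters were not found in the window of Stat2.

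Keap1 was lower with both Keap1 siRNAs, and more so with siKeap1-1. The log2 signal of Keap1 was 9.33 to 10.03 on siControl arrays, 7.21 to 7.93 on siKeap1-1 arrays and 8.03 to 8.59 on siKeap1-2 arrays, without overlap between any groups. Keap1 was 22.9% of control with siKeap1-1 and 38.8% with siKeap1-2, and Nqo1, a target of Nrf2, rose by 2.22 and 1.91 on the log2 scale. The 6 hepatocyte markers averaged 14.21 to 14.34 per siControl array, 14.08 to 14.23 per siKeap1-1 array and 14.07 to 14.28 per siKeap1-2 array. None was called with siKeap1-1, where Tat and Cps1 differed by −0.52 and −0.11 (limma adjusted p = 0.057 and 0.12). The manufacturer's probe set for the middle of 18S ribosomal RNA differed between groups. It lay between 10.34 and 10.77 on siControl arrays 1 to 3, between 8.86 and 9.54 on siControl arrays 4 to 8 and between 10.17 and 11.43 on the arrays of both Keap1 siRNAs. Values from fits that include this 18S signal are therefore given beside the calls of members, and as counts for the other pathway genes. Marker genes were not refitted in this way. The mean 18S signal was higher than with siControl by 1.23 with siKeap1-1 and by 1.18 with siKeap1-2. The signal and the treatment are thus hard to separate in such fits, and a call can be lost with little change in the difference.

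No interferon-stimulated gene was higher with siKeap1-1 than with siControl, and 4 of 32 were lower at an adjusted p under 0.05 (limma, Benjamini-Hochberg over 45037 probe sets). These were Stat2, Parp9, Parp14 and Rtp4. Over all genes, 9.49% passed this threshold, 4.82% as higher and 4.67% as lower. Without adjustment, 0 members were higher and 9 lower at p under 0.05, against 12.5% and 12% of all genes. The difference was below 0 for 27 of the 32 members, against 46.1% of all genes. Members vary together, so these are not 27 separate observations. Their median was −0.17 on the log2 scale, while the median over all genes was 0.01. Against siControl replicates 1 to 3 alone the median was −0.09, without siControl replicate 4 it was −0.11, and in both cases 22 members lay below 0. With siKeap1-2, 1 member was higher (Oasl1) and 1 lower (Stat2), where 6.6% of all genes passed, 2.85% as higher and 3.75% as lower. Here 18 members lay above 0 and 14 below, where 52% of all genes lay below. The median of the members was 0.04 compared with −0.01 over all genes. This median had no stable sign. It was −0.02 without siControl replicate 6 and also without siKeap1-2 replicate 7, and 10 to 18 members lay below 0 when any single array was left out. Both comparisons use the same 8 siControl arrays, so their values are not independent.

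**Figure D1:**
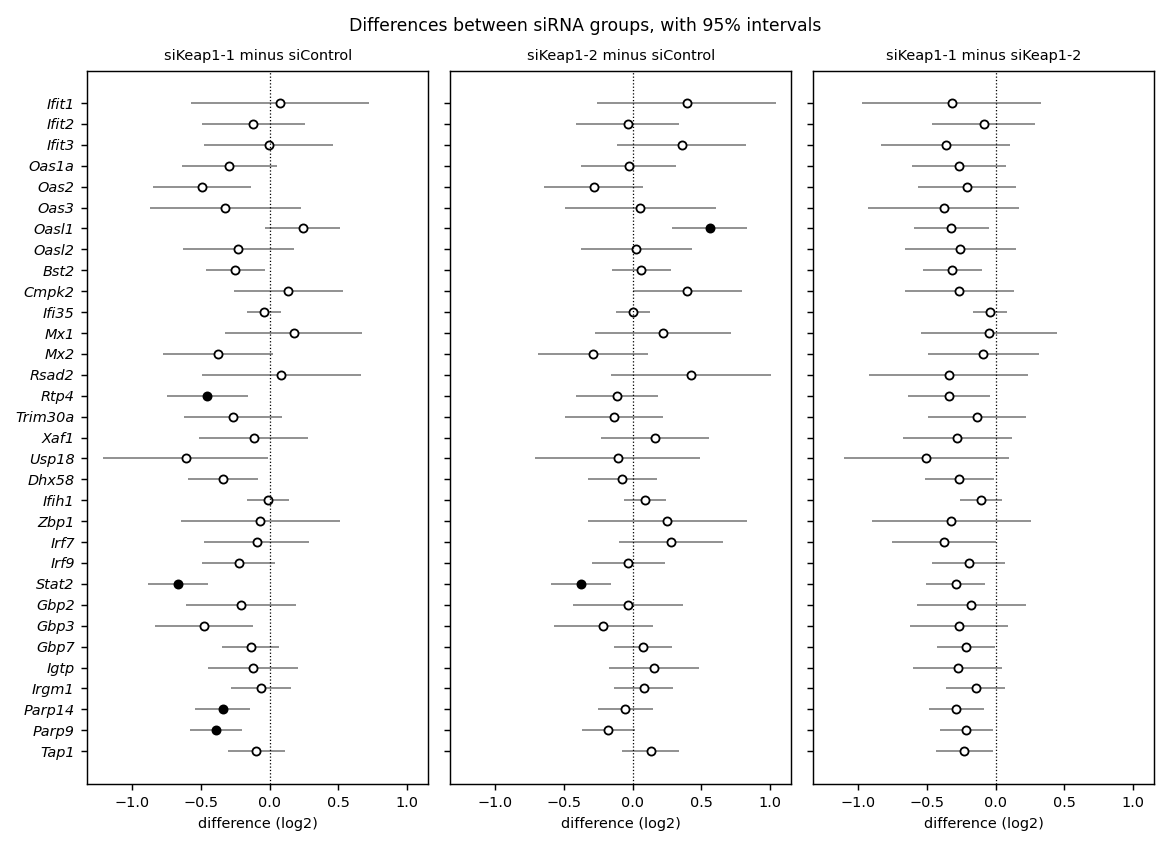
Difference in log2 signal (x axis) for each of the 32 genes (y axis) in the 3 comparisons, with n = 8 arrays per group. Points are estimates from limma and lines their 95% intervals, and filled points passed an adjusted p of 0.05. With siKeap1-1 the 4 filled points lie below 0, with siKeap1-2 Oasl1 lies above and Stat2 below 0, and between the Keap1 siRNAs all 32 points lie below 0 without a filled one.

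Stat2, the signal transducer that carries the type I interferon signal to the nucleus, was lower with both Keap1 siRNAs. Its log2 signal ranged from 8.53 to 9.11 for siControl (median 8.83), 7.87 to 8.57 for siKeap1-1 (median 8.10) and 8.12 to 8.84 for siKeap1-2 (median 8.43). With siKeap1-1, 7 of 8 arrays lay below the lowest control, and with siKeap1-2 6 of 8 did. Stat2 decreased by 0.66 ± 0.11 with siKeap1-1 (SE, limma adjusted p = 0.00019), to 63.1% of control. With siKeap1-2 it decreased by 0.37 ± 0.11 (limma adjusted p = 0.034), to 77.2% of control. A second, dimmer probe set of Stat2 differed by −0.38 (limma adjusted p = 0.0050) and −0.19 (limma adjusted p = 0.20). With the 18S covariate the first comparison kept a limma adjusted p of 0.017 and the second had 0.43. The siKeap1-2 call was also lost in 8 of 24 fits that each left out 1 array.

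The other transcription factors of the list did not pass the test. Irf9, the DNA-binding partner of Stat2, differed from siControl by −0.23 ± 0.13 with siKeap1-1 and by −0.03 ± 0.13 with siKeap1-2 (SE). Irf7, which amplifies interferon production, differed by −0.09 ± 0.18 and 0.28 ± 0.18. Its ranges overlapped, from 9.38 to 10.76 for siControl, 9.27 to 10.51 for siKeap1-1 and 9.87 to 11.04 for siKeap1-2. Of the siKeap1-1 arrays, however, 6 lay below the lowest siKeap1-2 array and 7 below the siKeap1-2 median.

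Parp9 and Parp14 encode ADP-ribosyltransferases of the interferon response. Parp9 lay at 10.76 to 11.40 for siControl (median 10.86), 10.34 to 10.81 for siKeap1-1 (median 10.56) and 10.63 to 11.04 for siKeap1-2 (median 10.76). All 8 siKeap1-1 arrays were below the control median, though the ranges overlapped. Parp9 decreased by 0.39 ± 0.09 with siKeap1-1 (SE, limma adjusted p = 0.0089), and differed by −0.18 ± 0.09 with siKeap1-2 (limma adjusted p = 0.29).

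Parp14 lay at 10.50 to 11.08 for siControl (median 10.78), 10.24 to 10.95 for siKeap1-1 (median 10.38) and 10.50 to 11.03 for siKeap1-2 (median 10.72). On 7 of 8 siKeap1-1 arrays it was below the lowest value of either other group, and replicate 7 stood at 10.95. It decreased by 0.34 ± 0.10 with siKeap1-1 (SE, limma adjusted p = 0.027) and differed by −0.05 ± 0.10 with siKeap1-2. A second probe set of Parp14 differed by −0.56 (limma adjusted p = 0.0010) and −0.28 (limma adjusted p = 0.12). The calls of both genes with siKeap1-1 were lost with the 18S covariate, at differences of −0.37 for Parp9 and −0.28 for Parp14 (limma adjusted p = 0.13 and 0.32). Over the list, 27 of 32 members lay below 0 in that fit, with a median of −0.21.

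Rtp4, a chaperone of membrane receptors that is strongly interferon-inducible, lay at 9.60 to 10.48 for siControl (median 9.80), 9.01 to 10.05 for siKeap1-1 (median 9.38) and 9.51 to 10.22 for siKeap1-2 (median 9.83). The decrease by 0.45 ± 0.14 with siKeap1-1 was just inside the threshold (SE, limma adjusted p = 0.0498), and a second probe set differed by −0.40 just outside it (limma adjusted p = 0.054). The call was lost in 20 of 24 fits that each left out 1 array, while the difference stayed between −0.54 and −0.37. It was also lost with the 18S covariate, at a difference of −0.41 (limma adjusted p = 0.33).

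**Figure D2:**
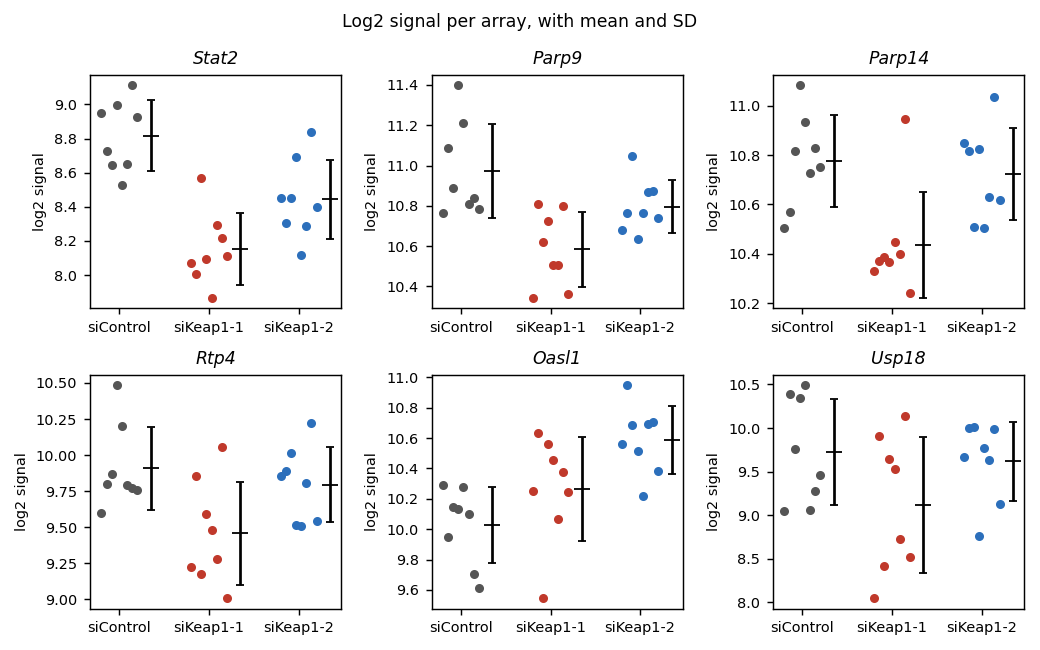
Log2 signal (y axis) of 6 genes on each of the 24 arrays, by siRNA group (x axis), with the mean and SD of 8 arrays beside the points. The highest siKeap1-1 array of Parp14 is replicate 7 at 10.95, and 7 of 8 siKeap1-2 arrays of Oasl1 lie above the highest control at 10.29.

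Among the oligoadenylate synthetases, Oasl1 was the only member called higher. Oasl1 is a member of the family that lacks synthetase activity and is known to limit translation of Irf7 mRNA. It ranged from 9.61 to 10.29 for siControl (median 10.12), 9.55 to 10.63 for siKeap1-1 (median 10.31) and 10.22 to 10.95 for siKeap1-2 (median 10.62). With siKeap1-2, 7 of 8 arrays were above the highest control. Oasl1 rose by 0.56 ± 0.13 with siKeap1-2 (SE, limma adjusted p = 0.012), to 147% of control, and the call held in all 24 fits that left out 1 array. With siKeap1-1 the difference was 0.24 ± 0.13 (limma adjusted p = 0.29), the largest positive value of that comparison. With the 18S covariate, the difference of Oasl1 with siKeap1-2 was 0.39 and the call was lost (limma adjusted p = 0.47).

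Oas1a, Oas2, Oas3 and Oasl2, of the family that makes the oligoadenylates that activate RNase L, did not pass in any comparison. Oas2 differed by −0.49 ± 0.17 with siKeap1-1 (SE, limma adjusted p = 0.078) and by −0.28 ± 0.17 with siKeap1-2. Oas1a, Oas3 and Oasl2 lay between −0.32 and −0.23 for siKeap1-1 and between −0.03 and 0.06 for siKeap1-2.

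The IFIT proteins bind foreign RNA and restrict its translation, and Ifit1 is among the most inducible genes of the response. Ifit1 ranged from 9.06 to 10.96 for siControl (median 9.70), 9.19 to 11.13 for siKeap1-1 (median 9.88) and 9.54 to 11.004 for siKeap1-2 (median 10.37). The 3 groups overlapped over most of their range. Ifit1 differed by 0.08 ± 0.32 with siKeap1-1 (95% interval −0.57 to 0.73) and by 0.39 ± 0.32 with siKeap1-2 (−0.26 to 1.04). With 8 arrays per group, a doubling of Ifit1 with siKeap1-2 thus remained within the interval. Ifit2 and Ifit3 differed by −0.12 and −0.01 for siKeap1-1 and by −0.03 and 0.36 for siKeap1-2.

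The remaining antiviral effectors besides Rtp4 were not called. Mx1 and Mx2, of the family of dynamin-like GTPases, differed by 0.17 and −0.37 for siKeap1-1 and by 0.22 and −0.29 for siKeap1-2. Rsad2 (viperin) and its neighbour Cmpk2, which together make an antiviral nucleotide, differed by 0.08 and 0.14 for siKeap1-1 and by 0.43 and 0.40 for siKeap1-2. The interval of Rsad2 with siKeap1-2 was −0.15 to 1.00. Bst2 (tetherin), which holds budding virions on the cell surface, differed by −0.25 and 0.07. Xaf1, which promotes apoptosis, and Trim30a, of the TRIM family of ubiquitin ligases, lay between −0.27 and 0.16 over both comparisons. Ifi35, a regulator of innate signalling, differed by −0.04 and 0.00 and had the narrowest spread of the list, from 13.10 to 13.48 for siControl, 13.14 to 13.46 for siKeap1-1 and 13.25 to 13.41 for siKeap1-2.

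Usp18, the protease that removes Isg15 from proteins and also restrains the type I receptor, showed a large difference with a wide spread. It ranged from 9.05 to 10.49 for siControl (median 9.61), 8.05 to 10.14 for siKeap1-1 (median 9.13) and 8.76 to 10.01 for siKeap1-2 (median 9.72). With siKeap1-1 it differed by −0.61 ± 0.29 (SE, limma adjusted p = 0.21), and with siKeap1-2 by −0.11 ± 0.29.

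The nucleic acid sensors were not called in either comparison. Ifih1 (MDA5), a sensor of long duplex RNA, differed by −0.01 ± 0.07 with siKeap1-1 and 0.09 ± 0.07 with siKeap1-2 (SE). Its regulator Dhx58 (LGP2) differed by −0.34 ± 0.12 and −0.07 ± 0.12, and Zbp1, which binds Z-form nucleic acids, by −0.07 ± 0.28 and 0.25 ± 0.28. The 5 interferon-inducible GTPases, Gbp2, Gbp3, Gbp7, Igtp and Irgm1, which act on vacuoles of intracellular pathogens and respond to interferon gamma, lay between −0.48 and −0.06 for siKeap1-1 and between −0.21 and 0.16 for siKeap1-2. Gbp3 was the lowest of them in both, with an adjusted p of 0.089 with siKeap1-1 (limma). Tap1, a subunit of the peptide transporter for antigen presentation, differed by −0.10 and 0.13.

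In the direct comparison of the Keap1 siRNAs, no member passed an adjusted p of 0.05 (limma), where 0.242% of all genes did (0.121% as higher and 0.121% as lower). Without adjustment, 9 members were lower with siKeap1-1 and 0 higher at p under 0.05, against 2.96% and 6.33% of all genes. All 32 of 32 members were lower on average with siKeap1-1 than with siKeap1-2, with a median difference of −0.26. Over all genes, 43.2% lay below 0 and the median was 0.02. The members share the same 16 arrays and vary together, so their common sign is not 32 separate observations. The differences ran from −0.50 ± 0.29 for Usp18 (limma adjusted p = 0.63) to −0.04 ± 0.06 for Ifi35. The smallest p was that of Bst2, at −0.31 ± 0.10 (SE, limma adjusted p = 0.29). Ranges overlapped for every member. When any single array was left out, 30 to 32 members stayed below 0 and the median lay between −0.32 and −0.21. Marker genes of immune cells lay below 0 as well, 9 of 9 for lymphocytes (median −0.10), 7 of 8 for Kupffer cells (median −0.13) and 5 of 7 for recruited myeloid cells (median −0.02). None of these markers was called, and their part in the result was not tested.

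The members varied more between mice of a group than most genes. Their SD within groups had a median of 0.37, compared with 0.19 over all genes, and 30 of 32 members were above the latter. Ifit1 had the largest SD, at 0.68, followed by Usp18 at 0.63, and Ifi35 the smallest at 0.11. As a mean over the 32 genes, the arrays lay at 9.30 to 10.09 for siControl, 9.10 to 9.85 for siKeap1-1 and 9.40 to 10.06 for siKeap1-2. Single livers stood high or low across the list. On siKeap1-2 replicate 7 all 32 genes, on siControl replicate 4 31 genes and on siKeap1-1 replicate 7 29 genes were above their own median over the 24 arrays. On siKeap1-1 replicate 8 the number was 0.

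**Figure D3:**
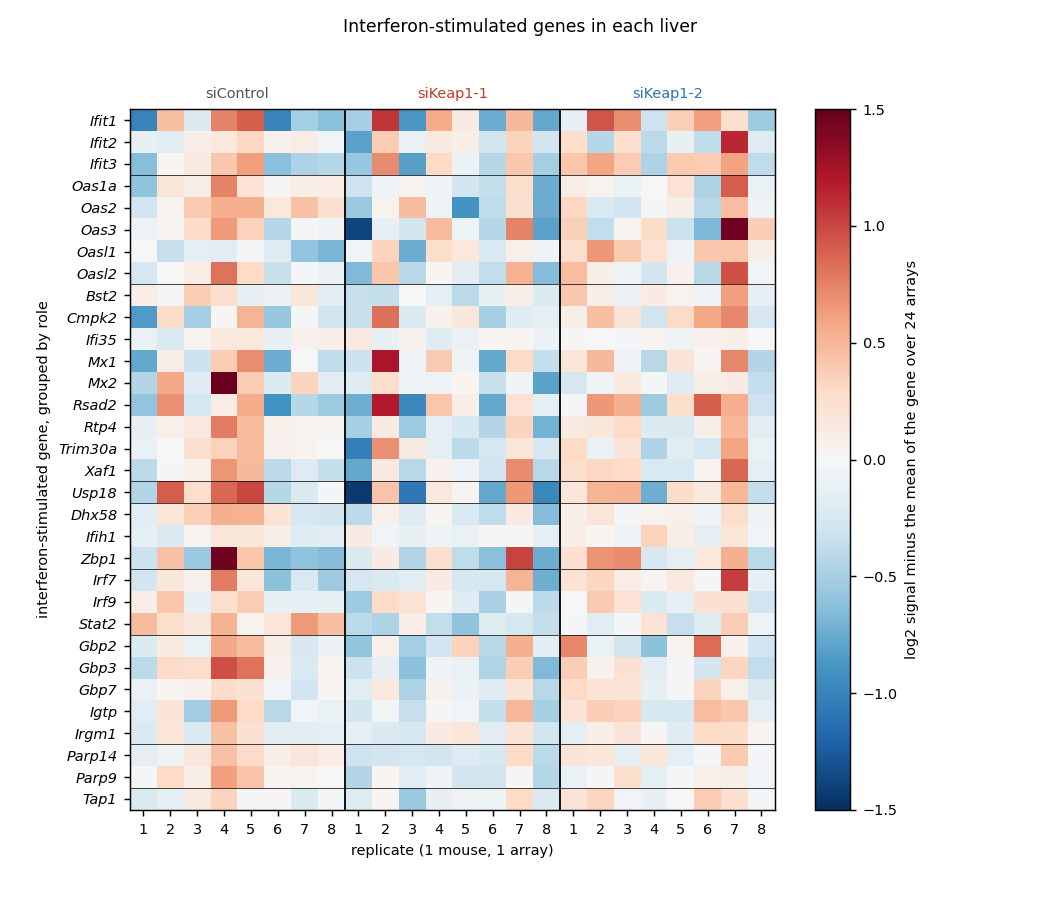
Log2 signal minus the mean of the gene over 24 arrays (colour) for the 32 genes (rows, grouped by role) on each array (columns, 8 replicates per siRNA). Each group has a column that is red in most rows (siControl replicate 4, siKeap1-1 replicate 7 and siKeap1-2 replicate 7), and siKeap1-1 replicate 8 has 0 of 32 genes above their median. Colours stop at 1.5 above and below the mean.

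Other measures of the same arrays moved with part of this spread. A principal component analysis was run on the deviations of probe sets from their group means, without the single-gene probe sets of the members. Its first component held 16.9% of the variance. The probe sets used still included other genes of the interferon pathway, and those that name Isg15 or Trim30a together with another gene. The sign of the component was chosen so that it correlates positively with the mean of the members. On the 11 arrays where the component was above 0, Ifit1 lay between 10.18 and 11.13, and on the other 13 between 9.06 and 10.32. For the mean over the 32 genes, the same arrays overlapped widely, at 9.44 to 10.09 (median 9.72) and 9.10 to 10.06 (median 9.40). On siKeap1-2 replicate 7, where all 32 genes were above their median, the component was −0.23. With the component in the fit, the spread of Ifit1 was 50.0% smaller, that of Usp18 42.8% and that of Rsad2 37.6%, with a median of 13.8% over the members and 1.29% over all genes. Oas1a, Oas2, Oas3, Ifit2 and Ifih1 were among 8 members whose spread was not reduced. The component was above 0 on 3 siControl, 4 siKeap1-1 and 4 siKeap1-2 arrays. The labels do not say which arrays came from fed mice, so the relation of the component to feeding was not tested.

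The array with the highest mean over the members was in each group also the one with the highest mean of the 7 measured markers of recruited myeloid cells, at 8.88 with siControl, 8.40 with siKeap1-1 and 8.32 with siKeap1-2. Other arrays did not all keep this order. On siKeap1-1 replicate 3 the markers averaged 8.08 and the members 9.26, and on replicate 2 they averaged 7.85 and 9.77. These markers averaged 7.39 to 8.88, 7.22 to 8.40 and 7.20 to 8.32 in the 3 groups, none of them was called in any comparison, and Itgam was below the median of all probe sets. In whole liver RNA, a different number of cells of a type and a different amount of RNA per cell cannot be told apart. Of 8 Kupffer cell markers, Timd4, Folr2 and Vsig4 were lower with siKeap1-1 (differences of −1.52, −0.81 and −0.60), where 4.67% of all genes were. The other 5 were not called. Adgre1, Csf1r and Clec4f differed by −0.55, −0.19 and −0.13, and Cd5l and Marco by 0.18 and 0.69. With siKeap1-2, Timd4 and Folr2 were lower (differences of −1.16 and −0.71), and Marco was higher by 1.49, against 3.75% of all genes lower and 2.85% higher. The mean of the Kupffer cell markers ranged from 9.87 to 10.79 for siControl, 9.35 to 10.44 for siKeap1-1 and 9.50 to 10.81 for siKeap1-2. The highest arrays were siControl replicate 3, siKeap1-1 replicate 8 and siKeap1-2 replicate 7, with 21, 0 and 32 members above their median. The markers of plasmacytoid dendritic cells, which are known for interferon release, were not called, and 2 of the 5 measured (Siglech and Ccr9) were below the median of all probe sets. The part of these cells in the results was not tested.

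**Figure D4:**
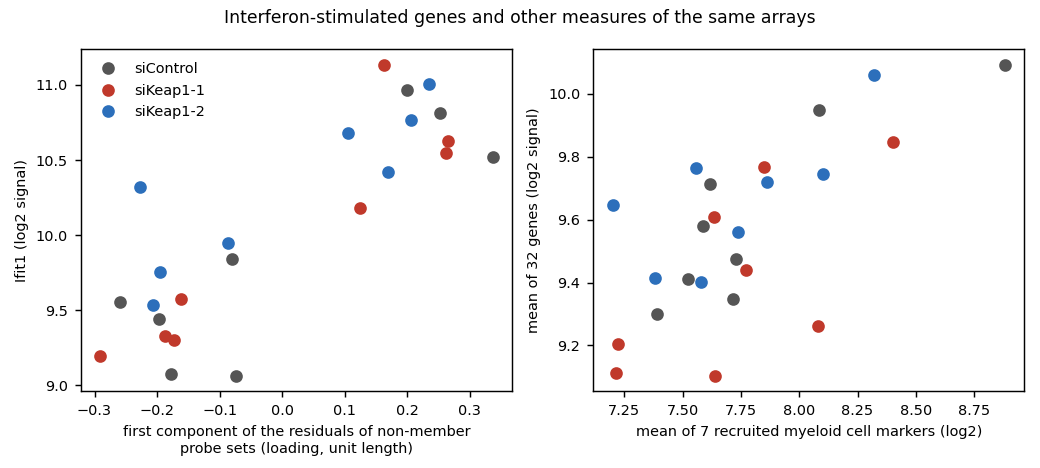
Left, Ifit1 (log2 signal) against the first residual component of probe sets other than the single-gene ones of the members. Right, the mean of the 32 genes against the mean of 7 recruited myeloid cell markers. Both panels have 1 point per array, coloured by siRNA. The 11 arrays to the right of 0 in the left panel have Ifit1 at 10.18 or above, and the highest point of each colour in the right panel is also the one farthest to the right.

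The wider interferon pathway was followed with a second list of 107 genes, of which 95 were measured. The ligands Ifnb1, Ifna1, Ifna2, Ifna4 and Ifng all had means below the median of all probe sets (5.87) and were not called. None of the 9 receptor chains and kinases was called either. Ifnar1 and Ifnar2, the chains of the type I receptor, differed by 0.15 and 0.11 for siKeap1-1 and by 0.11 and −0.05 for siKeap1-2. With siKeap1-1, 1 pathway gene was higher and 9 were lower, with a median of −0.11 over the list, and the 10 of 95 called stand beside 9.49% of all genes. With siKeap1-2, 2 were higher and 2 lower, with a median of −0.04, and the 4 called stand beside 6.6% of all genes. Between the Keap1 siRNAs, 0 were called by limma (at p under 0.05 without adjustment, 0 higher and 9 lower, against 6.33% and 2.96% of all genes). Of the 95, 77 lay below 0, as did 43.2% of all genes, with a median of −0.08.

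Cxcl11, a gene of the chemokine family, was called lower with both Keap1 siRNAs. It ranged from 8.01 to 8.87 for siControl, 6.92 to 7.80 for siKeap1-1 and 7.33 to 8.06 for siKeap1-2. Cxcl11 decreased by 0.88 ± 0.13 with siKeap1-1 (SE, limma adjusted p = 0.00012) and by 0.59 ± 0.13 with siKeap1-2 (limma adjusted p = 0.0095), and its second probe set was also called lower with both. The groups siKeap1-1 and siControl did not overlap for Cxcl11, Ifi27, Helz2 and Ifitm3, where 0.594% of all genes separated in this direction.

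Ifi27, a mitochondrial and nuclear membrane protein, decreased by 0.50 ± 0.10 with siKeap1-1, and Helz2, a helicase and nuclear receptor coactivator, by 0.44 ± 0.08 (SE, limma adjusted p = 0.0017 and 0.00087). Ifitm3, which blocks fusion of viruses with endosomes, decreased by 0.19 ± 0.04 (SE, limma adjusted p = 0.0054). Ifitm3 was narrow in each group, 14.26 to 14.40 for siControl, 14.03 to 14.21 for siKeap1-1 and 14.22 to 14.43 for siKeap1-2. Its siKeap1-1 arrays also lay below all siKeap1-2 arrays, as for 0.104% of all genes, without a call in that comparison.

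Nlrc5, the activator of MHC class I genes, decreased by 0.36 ± 0.08 and Rnf213, a ubiquitin ligase with antimicrobial activity, by 0.33 ± 0.10 with siKeap1-1 (SE, limma adjusted p = 0.0066 and 0.035), while a second, dim probe set of Rnf213 differed by 0.25. Samhd1, which depletes nucleotides, decreased by 0.43 ± 0.10 (SE, limma adjusted p = 0.0066), but its other 4 probe sets lay between −0.28 and 0.08 and were not called. The kinase Tbk1 and the adaptor Mavs, through which RNA sensors induce interferon, decreased by 0.24 ± 0.06 and 0.36 ± 0.11 with siKeap1-1 (SE, limma adjusted p = 0.0078 and 0.047). Mavs decreased by 0.54 ± 0.11 with siKeap1-2 (SE, limma adjusted p = 0.0048). Irf2, a repressor of interferon-responsive promoters, was the gene called higher with siKeap1-1, by 0.26 ± 0.08 (SE, limma adjusted p = 0.038). With siKeap1-2, Psme1, an activator subunit of the proteasome, rose by 0.27 ± 0.07 and Trafd1, a feedback inhibitor of innate signalling, by 0.32 ± 0.10 (SE, limma adjusted p = 0.019 and 0.043). Leaving out 1 array ended the calls of Irf2, Rnf213 and Mavs with siKeap1-1 in 8, 9 and 17 of 24 fits, and that of Trafd1 in 14. With the 18S covariate, 4 of the 10 pathway calls with siKeap1-1 were kept, and none of the 4 with siKeap1-2.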

How the data were processed

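The authors made the deposited log2 signals from Affymetrix mouse genome arrays with RMA (version not given in the sources used here), which corrects the background, equalises the distributions of the arrays and summarises probes. Array medians lay between 5.84 and 5.96. Groups came from the treatment labels. The 64 control probe sets were left out, and 45037 were tested in 1 model over all 3 groups, using limma 3.58.1 (lmFit, eBayes) in R 4.3.3. Benjamini-Hochberg adjustment covered all of them, with a threshold of 0.05 and no filter on low signals. Percentages of control are powers of 2 of log2 differences. Probe sets naming several genes (932) or none (9160) named no gene here. Arrays were checked for duplicates, and the most alike pair differed by an SD of 0.264. The number of arrays limits the precision. P-values measure the spread between the mice sampled.

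The members, gene lists, markers and alternatives were chosen with earlier results of these data known. Members called in any comparison or with the largest or smallest difference are given in full, as are called pathway genes. Motifs were searched in RefSeq promoters (GRCm38.p6). The fit was tested on simulated data. Replicate numbers were checked as pairs by correlating deviations from group means. Python 3.11.15 with matplotlib 3.10.9 served for the figures.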

Additional observations from a re-analysis of the deposited data

Results flagged for a closer look

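In 3 of 96 sets of 8 arrays (32 genes in 3 groups), a single array lay far from the others by Dixon's test, where chance gives about 1 in 20. Ifit2 on siKeap1-2 replicate 7 was 8.42, with the next array at 7.56. Irf7 on the same array was 11.04, with the next at 10.32. Parp14 on siKeap1-1 replicate 7 was 10.95, with the next at 10.45. Both arrays also had the highest mean over the 32 genes in their group.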

How the results depend on the processing

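With siKeap1-1, 4 members were called, 1 with an 18S covariate (Stat2), 7 with the first residual component as a covariate, 1 when the controls were siControl replicates 1 to 3 and 0 by a fold over 2 with an unadjusted p under 0.01. With siKeap1-2, 2 members were called, and under these settings 0, 2, 0 and 0, and 1 after quantile normalization. Of the pathway genes, 10 were called with siKeap1-1, against 4 with the 18S covariate, 2 with controls 1 to 3, 16 with controls 4 to 8 and 0 by fold. With siKeap1-2, 4 were called, against 0 with the 18S covariate, 0 with controls 1 to 3, 7 with controls 4 to 8, 0 by fold, 8 with the residual component, 9 without dim probe sets, 7 with a trended robust prior and 7 as means over the probe sets of a gene. Between the Keap1 siRNAs, 1 pathway gene was called with the trended robust prior, and no member under any setting. The cause of these changes was not tested. No called difference changed sign in any setting.

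Leaving out 1 array gave 2 to 6 members called with siKeap1-1, 1 to 2 with siKeap1-2 and 0 to 0 between the Keap1 siRNAs, and 7 to 11, 3 to 5 and 0 to 0 pathway genes. The 2 members came without siControl replicate 4, siControl replicate 5 or siKeap1-1 replicate 8, and 1 member was left with siKeap1-2 without siControl replicate 1, 4, 7 or 8 or siKeap1-2 replicate 2, 5, 6 or 8. Keap1 lay between −2.19 and −2.07 and between −1.41 and −1.31.

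Same-numbered arrays of different groups correlated between −0.17 and 0.28 (median 0.06), with 9 of 24 pairs over 0.1, so the numbers were not taken as pairs. With the replicate block, 4, 2 and 0 members and 9, 5 and 0 pathway genes were called, and Keap1 was −2.13 and −1.36. An array matched its own number best in 7 of 48 cases.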
